A study of Mus musculus with 9 samples.

Results

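Imprinted genes were followed in mouse embryonic stem (ES) cells with and without Kif2a, the gene for a kinesin-13 motor protein that depolymerises microtubule ends. The genes were 40 imprinted genes of 18 clusters, picked by name. Of these, 36 had a row in the table of 15526 genes, and Airn, Magel2, Rtl1 and Nap1l5 were absent from it and are not analysed here. A gene entered the tests if its normalised read count averaged 10 or more across the 9 libraries; 25 did, and the other 11 are described by their reads. KO2 and KO1 were 2 lines in which Kif2a had been removed in separate edits, and WT was the wild-type line. Each knockout is thus represented by 1 edited line, and effects of losing Kif2a and of the line itself cannot be told apart within it. All 3 lines were untreated ES cells labelled as 129, a mouse strain, and each gave 3 libraries of poly-A RNA.

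An imprinted gene is transcribed mainly from the copy inherited from one parent. Its cluster is governed by a control region that carries DNA methylation on one parental copy only, and in ES cells this mark is held by the zinc finger protein ZFP57, its cofactor TRIM28 and the maintenance methyltransferase. Imprinted clusters are known to drift during ES cell culture, so that subclones of one line can differ in them. Many imprinted genes act on fetal growth: paternally expressed genes such as Igf2, Peg3, Mest and Peg10 are known for promoting growth or placental development, and maternally expressed genes such as Igf2r, Grb10, Cdkn1c and Phlda2 for limiting it. The counts do not separate the parental copies, so all levels are sums over both. The expressed copy named for a gene below is the one it is known for, in some genes only in certain tissues. It was not measured in these ES cells.

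Promoter windows of 300 bases, from 250 before to 50 after a RefSeq transcription start in GRCm38.p6, were found for 34 of the 40 genes. They come from the C57BL/6J reference and not from the 129 cells. Below are windows of 5 genes whose levels differed between KO2 and WT: Mest and Plagl1, lower in KO2, and Igf2r, Peg3 and Commd1, higher in KO2. Capitals mark the hexamer TGCCGC, or its reverse complement GCGGCA, which ZFP57 binds when it is methylated. Mest and Peg3 lie in GRCm38.p6 at chr6:30737800-30738099, plus strand, and chr7:6730370-6730669, minus strand. Plagl1 and Igf2r lie at chr10:13090582-13090881, plus strand, and chr17:12769657-12769956, minus strand. Commd1 lies at chr11:22982235-22982534, minus strand. Mest has 3 windows, of which 2 overlap and hold 2 hexamers each and the third holds 0, and 1 of the overlapping pair is shown. Commd1 has a further window with 0 hexamers. Where a gene had several windows, the one shown was picked for holding the most hexamers.
Mest: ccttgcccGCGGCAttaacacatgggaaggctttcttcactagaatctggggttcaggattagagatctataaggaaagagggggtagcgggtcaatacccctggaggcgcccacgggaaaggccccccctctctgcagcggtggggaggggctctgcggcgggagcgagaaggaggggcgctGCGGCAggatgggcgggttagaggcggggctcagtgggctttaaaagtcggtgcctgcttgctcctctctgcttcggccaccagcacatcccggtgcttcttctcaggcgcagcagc
Plagl1: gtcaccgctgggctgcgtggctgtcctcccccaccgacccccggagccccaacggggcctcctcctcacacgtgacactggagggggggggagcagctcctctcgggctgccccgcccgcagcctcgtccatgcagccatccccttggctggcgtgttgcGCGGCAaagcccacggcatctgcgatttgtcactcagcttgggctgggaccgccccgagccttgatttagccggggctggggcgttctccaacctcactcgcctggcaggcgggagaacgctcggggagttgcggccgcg
Igf2r: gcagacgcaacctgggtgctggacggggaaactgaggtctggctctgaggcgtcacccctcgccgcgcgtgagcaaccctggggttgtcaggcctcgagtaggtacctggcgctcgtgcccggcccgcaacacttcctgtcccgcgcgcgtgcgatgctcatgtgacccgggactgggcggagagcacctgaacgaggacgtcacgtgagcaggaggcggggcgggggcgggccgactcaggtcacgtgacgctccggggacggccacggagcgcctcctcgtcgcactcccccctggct
Peg3: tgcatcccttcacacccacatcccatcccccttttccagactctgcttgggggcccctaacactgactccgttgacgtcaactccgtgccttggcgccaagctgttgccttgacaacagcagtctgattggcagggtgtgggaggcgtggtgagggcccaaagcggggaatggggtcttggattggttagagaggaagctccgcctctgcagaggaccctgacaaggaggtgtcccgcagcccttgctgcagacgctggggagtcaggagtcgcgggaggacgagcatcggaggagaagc
Commd1: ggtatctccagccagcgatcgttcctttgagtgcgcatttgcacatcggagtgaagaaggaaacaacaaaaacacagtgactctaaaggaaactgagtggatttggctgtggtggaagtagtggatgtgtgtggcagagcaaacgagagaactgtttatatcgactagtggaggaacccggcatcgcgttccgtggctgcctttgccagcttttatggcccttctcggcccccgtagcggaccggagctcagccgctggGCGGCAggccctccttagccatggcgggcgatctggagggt

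The Mest window shown holds 2 hexamers and the Plagl1 and Commd1 windows 1 each, while the Igf2r and Peg3 windows shown hold none, so both genes lower and genes higher in KO2 have a match. Of the windows of Zdbf2, lower in KO2 than in KO1, 1 holds 3 hexamers and the other 0. Over both strands, 14 of the 49 windows of imprinted genes (28.6%) held the hexamer, and 3813 of all 32851 windows (11.6%) did. Some of the 49 share sequence, as do those of Snrpn and Snurf, and no test was made of this share. The median number of CpG dinucleotides was 15 per window of the imprinted genes and 7 over all windows, and the windows shown hold 17 (Mest), 26 (Plagl1), 34 (Igf2r), 13 (Peg3) and 18 (Commd1). The Peg3 window shares 263 bases (chr7:6730370-6730632) with the window of Usp29, its neighbour on the opposite strand. A match of these letters is a description of the reference and not of binding or methylation in these cells. The windows were taken at transcription starts and were not matched to the control regions of the clusters.

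Whole reads were recovered from the normalised values, and the libraries held 14960295 to 18814858 reads. A normalised count of 1 therefore stood for about 10 reads, because 1 read was worth 0.0957 to 0.118. Kif2a had 6 to 17 reads in KO2, 9 to 11 in KO1 and 959 to 1049 in WT. In KO2 against WT, 1123 genes were higher and 769 lower, or 895 and 1023 with median-ratio scaling. In KO1 against WT, 85 were higher and 24 lower, or 62 and 42 with that scaling. All 10 ES cell markers passed the level filter, with summed normalised counts of 14412 to 14933 in KO2, 14147 to 14298 in KO1 and 13496 to 13965 in WT. Of these markers 2 were called higher and 1 lower in KO2 against WT, and 1 higher in KO1 against WT (limma). With quantile normalization, 2 were higher and 3 lower in KO2 against WT. Between the lines 4 were higher in KO2 and 0 lower (limma), and these counts depended on the setting. They were 3 higher and 2 lower with median-ratio scaling or DESeq2, and 2 and 4 with quantile normalization. Without KO2 replicate 3 they were 2 and 2, and without KO1 replicate 1 they were 1 and 0. Over all tested genes 18.5%, 1.06% and 9.92% were called in these comparisons. Whether the 3 libraries of a line came from separate cultures is not stated, and the p-values then cover the variation among libraries, which may be technical.

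Some markers of other cells differed in KO2, in both directions, and some neural markers also in KO1. Over all tested genes 18.5% were called in KO2 against WT and 1.06% in KO1 against WT. Of 14 fibroblast markers 8 had a row, and their summed counts were 162 to 166 in KO2, 129 to 135 in KO1 and 125 to 132 in WT. The 3 tested ones, Col5a1, Pdgfrb and Fbln2, were higher in KO2 than in WT. Among those under the filter, Thy1 lay at 9.22 to 12.2 in KO2 and 6.94 to 7.51 in WT. Col1a2 went the other way, with 2.95 to 3.49 in KO2 and 3.52 to 4.30 in WT. Fbn1, Pdgfra and Col1a1 overlapped between KO2 and WT, with lower means in KO2, and Col1a1 lay at 0.67 to 2.3 in all libraries. With no filter, limma called 4 of the 8 higher in KO2 against WT and 0 lower. Col3a1, Postn, Lum and Dcn had no row. Of 10 neural markers 8 had a row and 5 were tested. The neuronal genes Tubb3, Nefm, Nefl and Stmn2 were lower in KO2 than in WT and the progenitor gene Nes higher. In KO1 against WT 2 of the 5 were lower (limma), or 0 without KO1 replicate 1. The list summed to 536 to 563 in KO2, 560 to 578 in KO1 and 605 to 614 in WT. Of 10 primitive endoderm markers 4 had a row, and their summed counts were 33.9 to 39.9 in KO2, 26.3 to 31.6 in KO1 and 26.5 to 28.4 in WT. Gata4, the 1 tested, was higher in KO2. Dab2, under the level filter, had 3.43, 2.72 and 4.11 in KO2, 3.84, 3.99 and 6.03 in KO1, and 5.07, 6.51 and 6.10 in WT, with KO2 below WT, and with no filter 2 of the 4 were higher and 1 lower in KO2. Among trophoblast markers, 0 of 3 tested were called by limma, edgeR or DESeq2 in either line (with limma 0 at an unadjusted p under 0.05 in KO2 and 2 in KO1). That unadjusted threshold was passed by 3174 of all 10238 genes in KO2 and 1304 in KO1. The part of these markers in the imprinted gene results was not tested. In bulk RNA, fewer cells of a type and less RNA per cell cannot be told apart.

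Averaged over all libraries, the normalised count of the 36 genes ran between 0.652 (H19) and 406 (Igf2r). Igf2r, Rian, Meg3, Gnas, Peg10 and Plagl1 had 264 or more in every library. Set per kilobase of annotated exon, to allow for gene length, the highest level was that of Snurf, with 144 in KO2, 137 in KO1 and 136 in WT, ahead of Snrpn with 62.1 in KO2, 64.9 in KO1 and 65.2 in WT. Mcts2, Peg10, Plagl1 and Igf2r came next in WT, at 45.7, 42.4, 41.2 and 41.2 per kilobase, and their order differed in KO2, where Peg10 had 49.1, Igf2r 47.7, Mcts2 42.4 and Plagl1 37.8. At the other end in WT lay Dlk1, with 0.117 in KO2, 0.101 in KO1 and 0.129 in WT per kilobase, next to Kcnq1ot1, Igf2, Zim1 and H19. The exons of Snurf lie wholly within those of Snrpn, so the split of reads between those genes is uncertain. This order also rests on the annotated lengths, 216 bases for Snurf and 93092 for Kcnq1ot1, and the annotation behind the counts is not stated. Summed over the 36 genes, the normalised count was 3454 ± 49.0 in KO2, 3446 ± 24.7 in KO1 and 3370 ± 60.3 in WT (SD, n = 3).

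**Figure D1:**
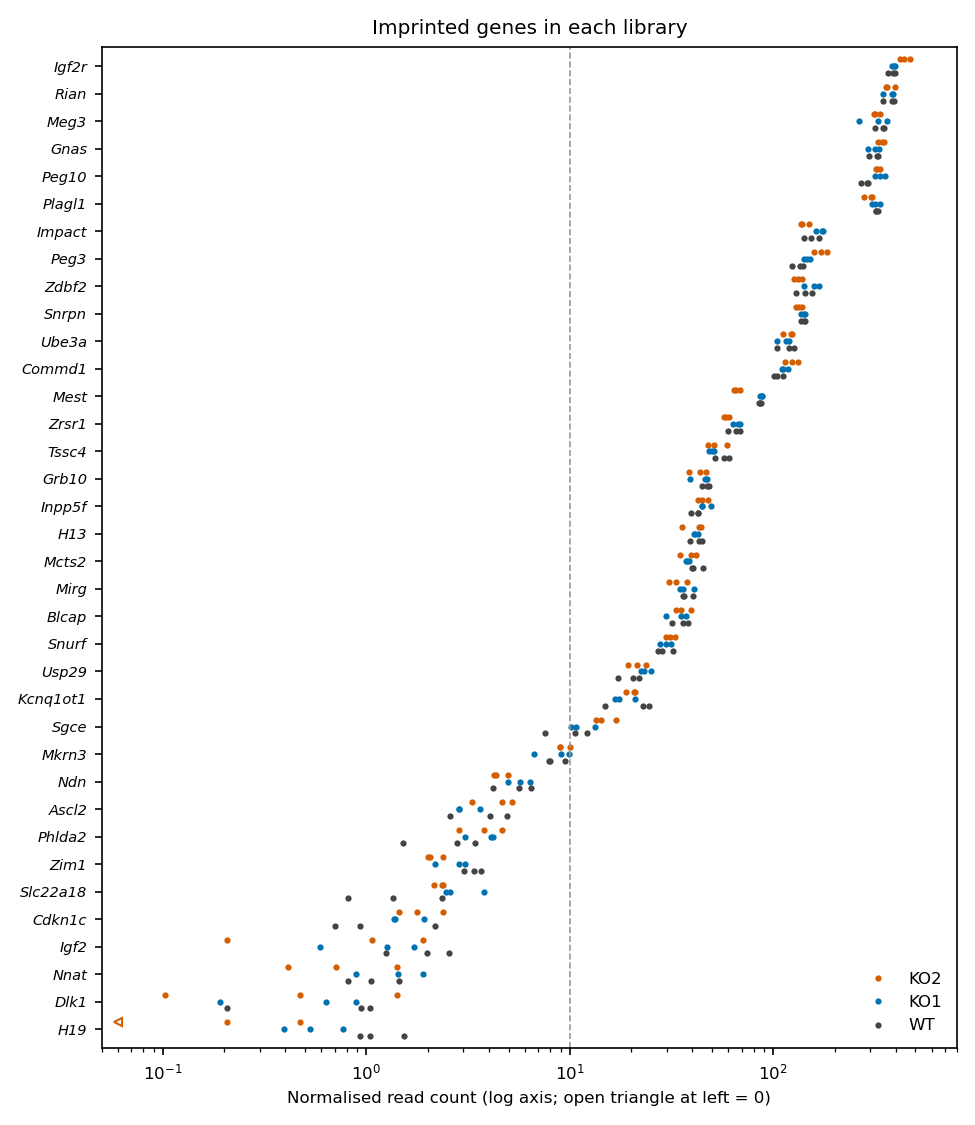
Normalised read counts of the 36 imprinted genes with a row, on a log axis, with 1 point per library in KO2, KO1 and WT and genes ordered by their mean. The dashed line is the level filter of 10: the 11 genes below it include Igf2, H19, Cdkn1c and Dlk1, and the open triangle marks the KO2 library in which H19 was at 0.

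In KO2 against WT, 7 of the 25 tested genes differed at an adjusted p under 0.05 (limma, Benjamini-Hochberg over 10238 genes): Sgce, Peg3, Commd1, Igf2r and Peg10 rose, and Mest and Plagl1 fell. That share was 28.0%, where 18.5% of all tested genes were called in that comparison, 11.0% higher and 7.51% lower. In KO1 against WT, 1 of the 25, Peg10, was called, with 1.06% called over all genes (0.83% higher and 0.234% lower). An unadjusted p under 0.05 (limma) was found for 6 of the 25, and for 1304 of all 10238 genes. KO2 was then set against KO1, which tests whether the lines' changes differ. Igf2r and Peg3 were higher in KO2 and Mest, Impact and Zdbf2 lower, so that 5 of 25 were called, with 9.92% called over all genes (4.71% higher and 5.22% lower). The changes were small: the largest fold among the 25 was 1.44 (Sgce in KO2). The median log2 fold change of the 25 was -0.01 in KO2 and -0.0037 in KO1, beside 0.02 in each line for all genes tested. KO1 and KO2 were both set against the same WT libraries. Where libraries of lines are said below to lie apart, this is a description and not a test. With 3 libraries per line such separation can arise without a difference, and its share over all genes was not computed.

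**Figure D2:**
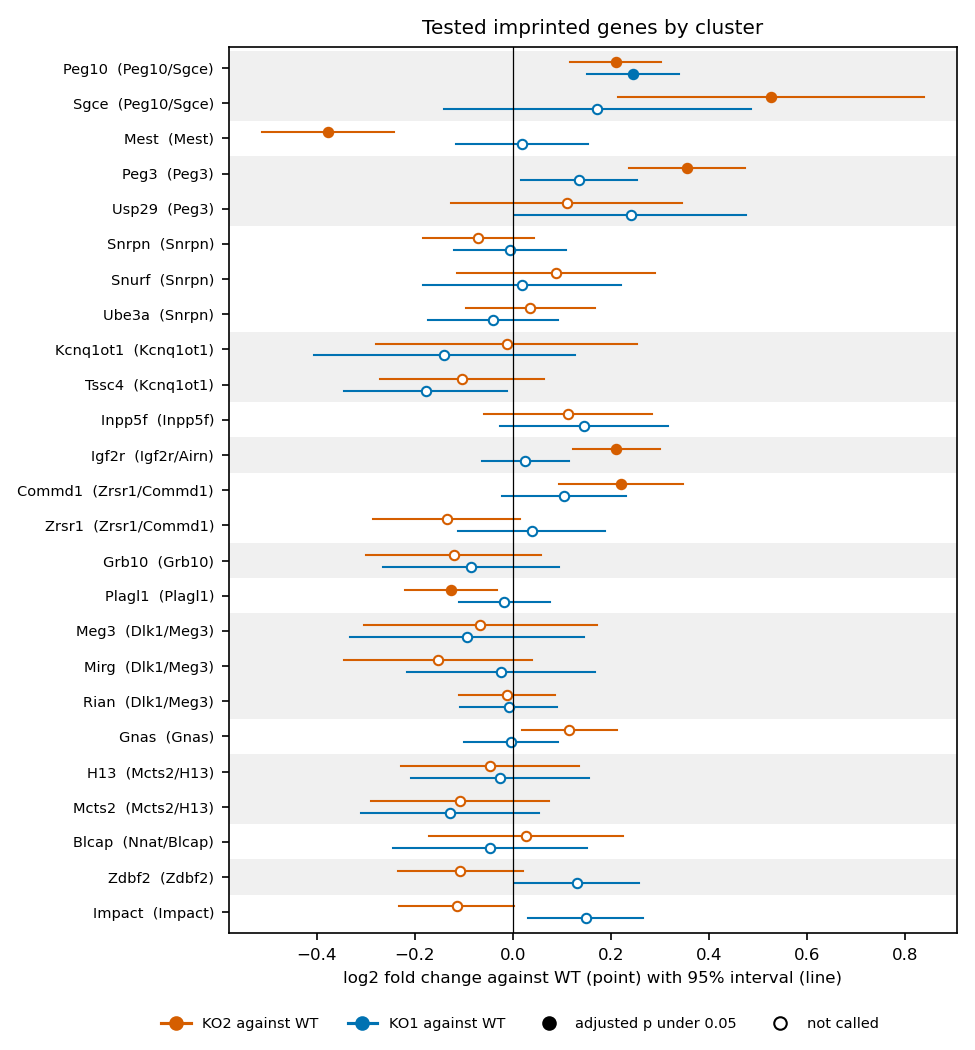
Log2 fold change against WT (x axis) of the 25 tested imprinted genes, grouped by cluster, in KO2 and KO1, with 95% intervals from limma as lines and filled points where the adjusted p was under 0.05. Peg10 is filled in both lines, and Sgce, Peg3, Commd1, Igf2r, Mest and Plagl1 in KO2.

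Peg10, a retrotransposon-derived gene needed for the placenta, was the gene that rose in both knockout lines. It is on chromosome 6 (4747306 to 4760517, GRCm38, plus strand), head to head with Sgce, and both are expressed from the paternal copy. Its normalised counts were 321, 325 and 335 in KO2, 317, 335 and 354 in KO1, and 269.8, 288 and 291 in WT. All 6 knockout libraries lay above the highest WT library. The log2 fold change was 0.21 ± 0.05, adjusted p = 0.000861 in KO2 and 0.24 ± 0.05, adjusted p = 0.000932 in KO1 (limma), and no alternative setting removed either call. KO2 and KO1 differed by -0.04 ± 0.05, adjusted p = 0.697, with a 95% interval of -0.13 to 0.06.

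Sgce, which encodes epsilon-sarcoglycan, a membrane protein of muscle and nerve, rose in KO2. It had 16.8, 13.4 and 14.3 in KO2, 10.1, 13.3 and 10.7 in KO1, and 10.6, 7.56 and 12.2 in WT. The 3 KO2 libraries lay above every KO1 and WT library, and KO1 overlapped WT. The call in KO2 (a log2 fold change of 0.53 ± 0.16, adjusted p = 0.0124, limma) stood beside 0.17 ± 0.16, adjusted p = 0.719 in KO1, and the lines differed by 0.35 ± 0.16, adjusted p = 0.145. The KO2 call was lost without KO2 replicate 1 (0.44, adjusted p = 0.0873) and without WT replicate 2 (0.35, adjusted p = 0.141). KO1 without WT replicate 2 had -0.0038, and with a filter at 50 Sgce was not tested.

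Peg3, a zinc finger protein expressed from the paternal copy, rose in KO2. Its counts on chromosome 7 (6703892 to 6730431, minus strand) were 172, 158 and 184 in KO2, 147, 151 and 142 in KO1, and 140.2, 136 and 124 in WT. All 6 knockout libraries lay above the WT libraries, and KO2 lay above KO1. The log2 fold change was 0.36 ± 0.06, adjusted p = 1.14e-05 in KO2 and 0.14 ± 0.06, adjusted p = 0.304 in KO1 (limma). KO2 exceeded KO1 by 0.22 ± 0.06, adjusted p = 0.0102, a call lost without KO1 replicate 3 (0.20, adjusted p = 0.0657) or KO2 replicate 3 (0.17, adjusted p = 0.069).

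The neighbours of Peg3 were not called. Usp29, a deubiquitinase-family gene whose promoter window overlaps that of Peg3, had 23.6, 19.4 and 21.3 in KO2, 23.1, 22.4 and 25.1 in KO1, and 21.8, 17.2 and 20.4 in WT, with KO1 above WT and KO2 overlapping both. Its log2 fold change was 0.11 ± 0.12, adjusted p = 0.559 in KO2 and 0.24 ± 0.12, adjusted p = 0.374 in KO1 (limma). Zim1, a maternally expressed zinc finger gene of the cluster, was under the level filter, with reads of 17, 20 and 20 in KO2, 22, 27 and 32 in KO1, and 29, 29 and 31 in WT. The KO2 libraries lay below the WT libraries and overlapped KO1. Its ratio per recovered depth was 0.644 (95% interval 0.453 to 0.908) in KO2 and 0.809 (95% interval 0.591 to 1.11) in KO1 against WT, and these intervals cover counting error only.

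Mest, a paternally expressed gene for a hydrolase-fold protein, fell in KO2 and was the member with the widest gap between the lines among those called there. It is on chromosome 6 (30723547 to 30748465, plus strand). Its counts were 65.5, 64.2 and 68.6 in KO2, 86.0, 87.8 and 87.9 in KO1, and 85.8, 85.2 and 87.3 in WT. The KO2 libraries lay below all others, and KO1 and WT overlapped within 85.2 to 87.9. The log2 fold change was -0.38 ± 0.07, adjusted p = 4.09e-05 in KO2 and 0.02 ± 0.07, adjusted p = 0.951 in KO1 (limma). KO2 against KO1 gave -0.40 ± 0.07, adjusted p = 4.04e-05, and no alternative removed either KO2 call. In KO1 the sign of the change turned with the scaling.

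Mest overlaps Copg2, a coatomer subunit gene on the opposite strand, over 912 exonic bases, or 23.1% of its exons. Copg2 rose in KO2 (log2 fold change 0.20 ± 0.06, adjusted p = 0.0159, limma), with counts of 167, 143 and 166 in KO2, 166, 149.9 and 153 in KO1, and 141, 129 and 144 in WT. The library kit kept the strand, but the counting setting is not given in the sources used here, so reads in the overlap cannot be assigned with certainty.

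Plagl1, the zinc finger transcription factor also called Zac1, is expressed from the paternal copy. It had 306, 302 and 279 in KO2, 305, 317 and 334 in KO1, and 320.4, 318 and 329 in WT, the KO2 libraries below all WT libraries and overlapping KO1. Its log2 fold change was -0.13 ± 0.05, adjusted p = 0.049 in KO2 and -0.02 ± 0.05, adjusted p = 0.931 in KO1 (limma). The KO2 call sat at the threshold. It was lost on leaving out any 1 library other than KO2 replicate 1, with adjusted p-values of 0.0521 (without KO1 replicate 3) to 0.223 (without KO2 replicate 3).

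Igf2r, the receptor that carries IGF2 to the lysosome for breakdown and is known as maternally expressed, rose in KO2. It lies on chromosome 17 (12682406 to 12769664, minus strand), and its counts were 472, 421 and 439 in KO2, 383, 392 and 395 in KO1, and 394, 365 and 389.7 in WT. Every KO2 library lay above every KO1 and WT library, and KO1 and WT overlapped. The log2 fold change was 0.21 ± 0.04, adjusted p = 0.000434 in KO2 and 0.03 ± 0.04, adjusted p = 0.879 in KO1 (limma). KO2 exceeded KO1 by 0.19 ± 0.04, adjusted p = 0.00371, and without KO2 replicate 1 by 0.14, adjusted p = 0.0682.

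Of 16 listed genes linked to insulin-like growth factors 11 were tested, and 5 rose and 1 fell in KO2 against WT. The list is wider than the signalling pathway, as it also held the RNA-binding Igf2bp1, Igf2bp2 and Igf2bp3, Cd44 and M6pr. Over all genes 18.5% were called there, 11.0% higher and 7.51% lower. The tested genes of the list had a median log2 fold change of 0.11 beside 0.02 for all genes. Igfbp2, a secreted binding protein, averaged 1224 ± 41.9 in KO2, 931 ± 12.2 in KO1 and 889 ± 36.8 in WT (SD, n = 3), a log2 fold change of 0.46 ± 0.04, adjusted p = 1.42e-13 in KO2 (limma). Igfbp4, another binding protein, averaged 44.1 ± 5.48 in KO2, 33.0 ± 4.44 in KO1 and 25.9 ± 3.32 in WT, and rose by 0.75 ± 0.11, adjusted p = 4.66e-07 in KO2. Insr, the insulin receptor, changed by 0.33 ± 0.08, adjusted p = 0.00334, and Igf2bp1, an RNA-binding protein of the Igf2 mRNA, by -0.16 ± 0.04, adjusted p = 0.00107. Without KO2 replicate 1, 3 rose and 1 fell. In KO1 against WT, 0 of the 11 were called by limma, edgeR or DESeq2, with 3 at an unadjusted p under 0.05 (limma). In that comparison 1.06% of all tested genes were called, and 1304 of 10238 had an unadjusted p under 0.05. Igf1r, the signalling receptor for IGF1 and IGF2, had 0.05 ± 0.10, adjusted p = 0.767 in KO2 and -0.01 ± 0.10, adjusted p = 0.985 in KO1.

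Grb10, an adaptor that restrains insulin and IGF1 receptor signalling, is expressed from the maternal copy outside neurons. It had 46.9, 38.4 and 43.5 in KO2, 46.1, 38.8 and 47.4 in KO1, and 48.0, 47.1 and 44.8 in WT, and the groups overlapped. Its log2 fold change was -0.12 ± 0.09 in KO2 (95% interval -0.30 to 0.06) and -0.09 ± 0.09 in KO1 (-0.26 to 0.09), with adjusted p = 0.372 and 0.768 (limma).

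Commd1 and Zrsr1 are a host gene and the retrogene inside its intron on chromosome 11. Commd1, a COMM domain protein of endosomal sorting, had 123, 114 and 132 in KO2, 111, 111 and 118 in KO1, and 101, 111 and 104 in WT. The KO2 libraries lay above the WT libraries, and KO1 overlapped both. Commd1 rose in KO2 (log2 fold change 0.22 ± 0.06, adjusted p = 0.00983, limma) and had 0.10 ± 0.06, adjusted p = 0.521 in KO1. The KO2 call was lost without KO2 replicate 3 (0.17, adjusted p = 0.0662) and without WT replicate 1 (0.19, adjusted p = 0.0601).

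Zrsr1, a splicing factor retrogene expressed from the paternal copy, pointed the other way in KO2 without passing the test. It had 58.7, 57.1 and 60.8 in KO2, 67.1, 68.8 and 63.7 in KO1, and 60.1, 65.7 and 68.8 in WT, with KO2 below KO1 and overlapping WT. Its log2 fold change was -0.14 ± 0.07, adjusted p = 0.21 in KO2 and 0.04 ± 0.07, adjusted p = 0.891 in KO1, and KO2 against KO1 gave -0.17 ± 0.07, adjusted p = 0.133 (limma). The genes share 412 exonic bases on opposite strands.

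**Figure D3:**
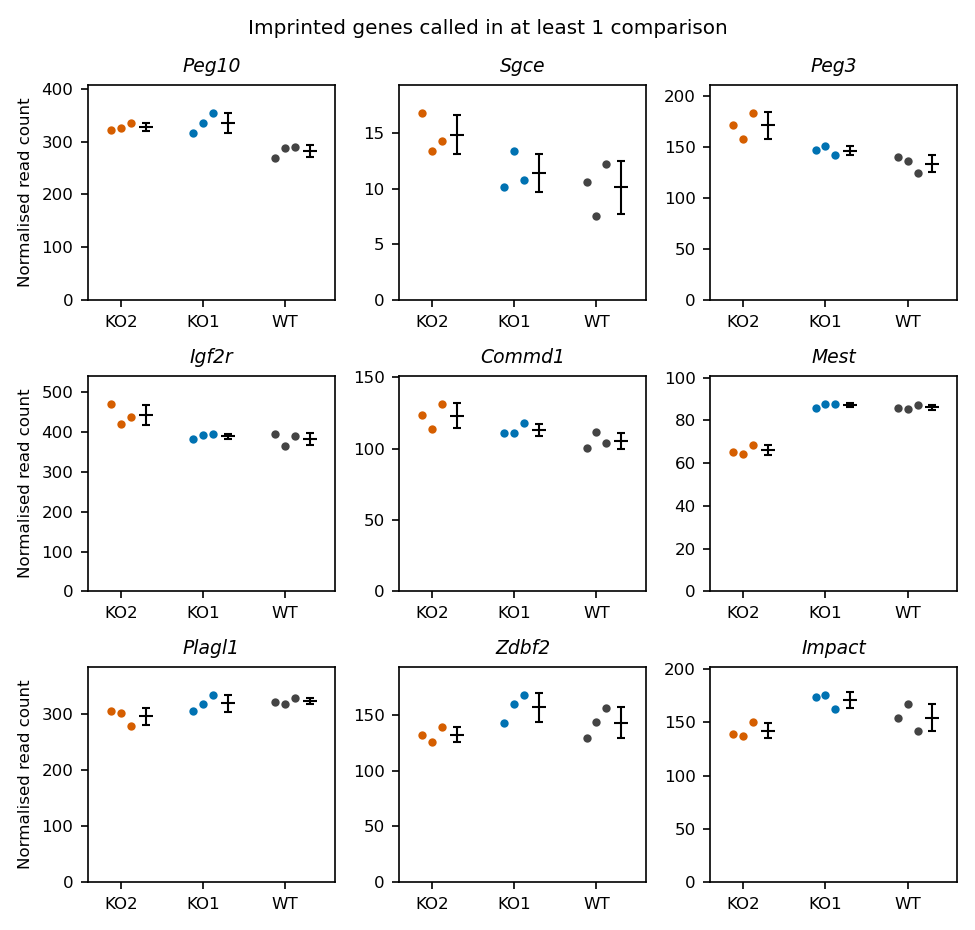
Normalised read counts (y axis from 0) of the 9 imprinted genes called in at least 1 comparison between lines, with 1 point per library and the mean ± SD (n = 3) beside it in KO2, KO1 and WT. The KO2 libraries of Mest lie at 64.2 to 68.6, below all others, and the 6 knockout libraries of Peg10 lie above the WT libraries.

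Impact and Zdbf2 differed between the knockout lines while neither line was called against WT. Impact, a paternally expressed inhibitor of the GCN2 kinase on chromosome 18, had 139, 137 and 150.5 in KO2, 174, 176 and 163 in KO1, and 154, 167 and 142 in WT. KO2 lay below KO1 without overlap, and WT overlapped both. KO2 against KO1 gave a log2 difference of -0.26 ± 0.06, adjusted p = 0.00181 (limma), and no alternative removed this call. Against WT, Impact had -0.11 ± 0.06, adjusted p = 0.173 in KO2 and 0.15 ± 0.06, adjusted p = 0.253 in KO1.

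Zdbf2, a paternally expressed zinc finger gene on chromosome 1, had 132, 126 and 139 in KO2, 142, 159 and 168 in KO1, and 129, 144 and 156 in WT. Again KO2 lay below KO1 and WT overlapped both. KO2 against KO1 gave -0.24 ± 0.06, adjusted p = 0.00929 (limma), with -0.11 ± 0.06, adjusted p = 0.248 in KO2 and 0.13 ± 0.06, adjusted p = 0.367 in KO1 against WT. The call between the lines was lost without KO1 replicate 2 (-0.22, adjusted p = 0.0608), KO1 replicate 3 (-0.19, adjusted p = 0.106) or KO2 replicate 2 (-0.20, adjusted p = 0.0634). The residual SD of Zdbf2 was at percentile 97.0 of the 500 tested genes nearest to it in level.

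The Dlk1/Meg3 cluster on chromosome 12 is the imprinted cluster best known for silencing in cultured ES cells, where the maternally expressed non-coding RNAs Meg3, Rian and Mirg are lost together. All were expressed in all 9 libraries. Meg3 had 313, 333 and 317 in KO2, 361, 329 and 264 in KO1, and 345, 315 and 350.4 in WT, and Rian, the host of a snoRNA array, had 360.4, 357 and 397 in KO2, 389.7, 383 and 345 in KO1, and 393, 348 and 384 in WT. Mirg, the host of a miRNA array, had 30.7, 37.6 and 33.4 in KO2, 40.6, 34.9 and 36.0 in KO1, and 36.6, 36.2 and 40.5 in WT. The groups overlapped for each of these RNAs. Summed, they came to 727 ± 21.5 in KO2, 727 ± 74.9 in KO1 and 749 ± 43.7 in WT (SD, n = 3).

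None of these 3 RNAs was called in either line (limma, 0 also at an unadjusted p under 0.05). The 95% intervals of the log2 fold change in KO2 were -0.30 to 0.17 for Meg3, -0.11 to 0.09 for Rian and -0.34 to 0.04 for Mirg. In KO1 they were -0.33 to 0.14, -0.11 to 0.09 and -0.22 to 0.17 for Meg3, Rian and Mirg. Meg3 varied more within lines than other genes of its level, with a residual SD at percentile 99.6 of the 500 nearest in level. KO1 replicate 3 had the lowest Meg3 and the lowest Rian of the 9 libraries, at 78.4% and 92.0% of the WT mean. Dlk1, the paternally expressed protein gene of the cluster, had reads of 12, 4 and 1 in KO2, 9, 6 and 2 in KO1, and 2, 9 and 8 in WT, which is too few to compare.

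**Figure D4:**
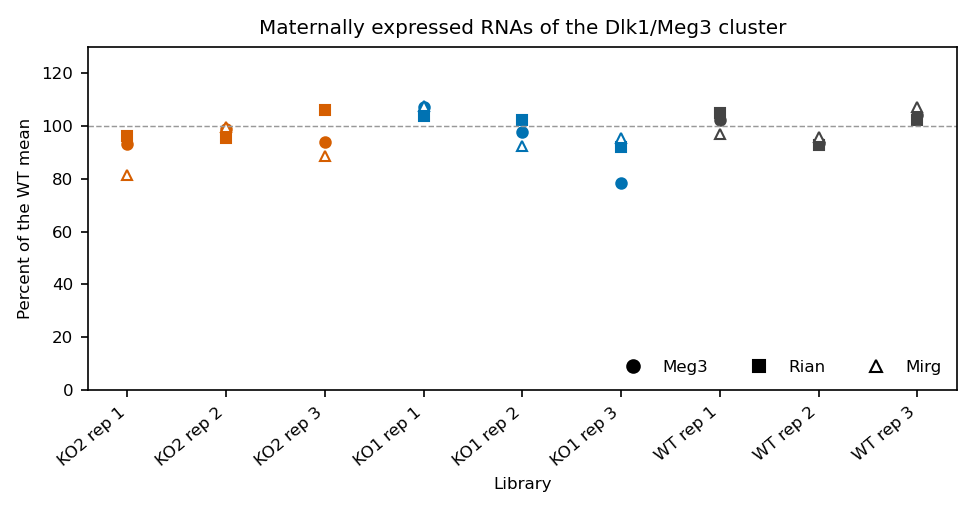
Meg3, Rian and Mirg in each of the 9 libraries, as percent of the WT mean (y axis from 0, dashed line at 100). No library fell below 78% for any of them, and the lowest point is Meg3 in KO1 replicate 3.

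The Snrpn cluster on chromosome 7 showed no call. Snrpn, a splicing protein of the small nuclear ribonucleoproteins, had 139, 134 and 129 in KO2, 143, 141 and 136 in KO1, and 143, 137 and 142 in WT. The groups overlapped, and its residual SD was among the lowest of its level, at percentile 6.8. Its log2 fold change was -0.07 ± 0.06, adjusted p = 0.417 in KO2 and -0.01 ± 0.06, adjusted p = 0.981 in KO1 (limma). Ube3a, a ubiquitin ligase imprinted in neurons, had 112 to 123 in KO2, 104 to 119 in KO1 and 104 to 126 in WT, and log2 fold changes of 0.04 in KO2 and -0.04 in KO1. Snurf, a reading frame upstream on the Snrpn transcript, had 29.6 to 32.9 in KO2, 27.8 to 31.4 in KO1 and 27.2 to 32.2 in WT. The MAGE gene Ndn and the makorin Mkrn3, both paternally expressed, were under the filter, with reads of 42, 36 and 42 in KO2, 65, 54 and 52 in KO1, and 62, 36 and 48 in WT for Ndn. In Ndn the KO2 libraries lay below the KO1 libraries, and WT overlapped both. Mkrn3 had reads of 85, 76 and 87 in KO2, 101, 86 and 70 in KO1, and 91, 68 and 68 in WT, which overlapped between the lines.

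Gnas, which encodes the stimulatory G protein alpha subunit and several imprinted transcripts, had 340.5, 352 and 327 in KO2, 293, 315 and 332 in KO1, and 325, 294 and 322 in WT. The KO2 libraries lay above the WT libraries, and KO1 overlapped both. Its log2 fold change in KO2 was 0.12 ± 0.05, adjusted p = 0.0852 (limma), and without KO2 replicate 3 it was 0.14, adjusted p = 0.037. KO2 against KO1 gave 0.12 ± 0.05, adjusted p = 0.104, and without KO2 replicate 3 0.15, adjusted p = 0.0481. In KO1 against WT it was -0.0037 ± 0.05, adjusted p = 0.987. The deposited counts do not separate its transcripts.

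H13, a signal peptide peptidase that hosts the retrogene Mcts2, Blcap, the host of Nnat, and the inositol phosphatase Inpp5f had normalised counts of 29.8 to 49.2 in all libraries, Mcts2 included. Their log2 fold changes were -0.11 to 0.11 in KO2 and -0.13 to 0.15 in KO1, and none was called. Mcts2 had 34.8 to 41.5 in KO2, 37.4 to 38.7 in KO1 and 39.7 to 45.1 in WT, and its KO1 libraries lay below the WT libraries. Inpp5f had 42.7 to 47.7 in KO2, 44.5 to 49.2 in KO1 and 39.3 to 42.8 in WT, with KO1 above WT. Neither separation came with a call.

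The Kcnq1ot1 cluster of chromosome 7 holds a paternally expressed antisense RNA, which silences its neighbours in cis, and 5 maternally expressed genes. Kcnq1ot1 had 20.7, 20.9 and 18.8 in KO2, 16.7, 21.0 and 17.5 in KO1, and 14.9, 22.9 and 24.4 in WT, with log2 fold changes of -0.01 ± 0.13, adjusted p = 0.963 in KO2 and -0.14 ± 0.13, adjusted p = 0.74 in KO1 (limma). The groups overlapped, and the spread of this RNA was at percentile 97.2 of genes of its level. Tssc4, a splicing assembly factor, had 50.9, 59.1 and 48.0 in KO2, 48.2, 51.4 and 49.9 in KO1, and 57.3, 51.8 and 60.8 in WT, and log2 fold changes of -0.10 ± 0.08, adjusted p = 0.417 in KO2 and -0.18 ± 0.08, adjusted p = 0.345 in KO1. The KO1 libraries of Tssc4 lay below the WT libraries.

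The growth-limiting genes of that cluster were near the floor. Reads of Phlda2, which restrains placental growth, were 24, 39 and 37 in KO2, 31, 39 and 44 in KO1, and 27, 13 and 29 in WT. Its ratio was 1.46 (95% interval 1.06 to 2.01) in KO2 and 1.47 (95% interval 1.08 to 2.01) in KO1 against WT. Slc22a18, a transporter, had reads of 20, 20 and 21 in KO2, 25, 36 and 27 in KO1, and 13, 7 and 20 in WT. Its ratio was 1.53 (95% interval 1.01 to 2.34) in KO2 and 1.96 (95% interval 1.33 to 2.92) in KO1, and its KO1 libraries lay above both other lines while KO2 overlapped WT. All 4 of these intervals lay above 1, and they cover counting error only. With no level filter, limma gave adjusted p-values of 0.224 and 0.46 for Phlda2 in KO2 and KO1, and 0.242 and 0.209 for Slc22a18. Cdkn1c, the cell cycle inhibitor p57, had reads of 15, 20 and 14 in KO2, 14, 13 and 20 in KO1, and 21, 8 and 6 in WT. Ascl2, a trophoblast transcription factor, had reads of 44, 28 and 45 in KO2, 29, 27 and 38 in KO1, and 39, 42 and 22 in WT. Both overlapped between the lines.

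H19 and Igf2, the reciprocal pair of distal chromosome 7, were barely expressed. Reads of H19, a maternally expressed non-coding RNA, were 0, 4 and 2 in KO2, 4, 5 and 8 in KO1, and 9, 9 and 13 in WT. Every knockout library lay below every WT library, and 1 KO2 library was at 0. The ratio was 0.195 (95% interval 0.0663 to 0.473) in KO2 and 0.487 (95% interval 0.253 to 0.908) in KO1 against WT. With no level filter, limma gave H19 a log2(value + 1) change of -0.83 ± 0.27, adjusted p = 0.0279 in KO2 and -0.47 ± 0.27, adjusted p = 0.533 in KO1, a scale that understates changes at this level. The lines differed by -0.36 ± 0.27, adjusted p = 0.479.

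Reads of Igf2, the fetal growth factor of this pair, were 9, 16 and 2 in KO2, 6, 12 and 18 in KO1, and 12, 22 and 17 in WT. KO2 and WT overlapped, as did KO1 and WT, and 62.8% of the Igf2 exons are shared with the gene model Gm49394 on the same strand. The ratio of Igf2 was 0.532 (95% interval 0.321 to 0.864) in KO2 and 0.627 (95% interval 0.398 to 0.980) in KO1, and with no level filter limma gave adjusted p-values of 0.163 and 0.606. Nnat, a paternally expressed proteolipid gene inside Blcap, had reads of 6, 12 and 4 in KO2, 9, 18 and 15 in KO1, and 14, 7 and 9 in WT, which overlapped.

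By parental copy, 13 of the tested genes are known as paternally expressed and 7 as maternally expressed. In KO2 against WT, 3 paternal genes rose (Sgce, Peg3 and Peg10) and 2 fell (Mest and Plagl1), with a median log2 fold change of -0.07. Of the genes known as maternal, 2 rose (Igf2r and Commd1) and 0 fell, with a median of -0.05. Which copy was expressed in these cells was not measured. In KO1 the medians were 0.04 for the paternal and -0.02 for the maternal genes. By position, the 3 tested genes of chromosome 6 were all called in KO2, 2 up and 1 down, and 1 of the 8 tested genes of chromosome 7. All of these counts in KO2 stand beside 18.5% called over all genes (11.0% higher, 7.51% lower). No difference between these classes was tested.

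Averaging both lines against WT called 5 of the 25 genes, with 9.09% called over all genes (6.16% higher and 2.93% lower). Peg10 (0.23 ± 0.04, adjusted p = 8.77e-05), Peg3 (0.25 ± 0.05, adjusted p = 0.000854), Commd1 (0.16 ± 0.05, adjusted p = 0.0493) and Igf2r (0.12 ± 0.04, adjusted p = 0.04) were higher, and Mest (-0.18 ± 0.06, adjusted p = 0.039) was lower (log2 fold change, limma). Commd1 was lost without any 1 library other than KO2 replicate 2 or WT replicate 2 (adjusted p up to 0.225), and Igf2r without any other than KO2 replicate 2, KO2 replicate 3 or WT replicate 1 (up to 0.256). Mest was lost without any other than KO2 replicate 3 (up to 0.146). Under median-ratio scaling 2 genes were higher and 1 lower, beside 459 higher and 479 lower over all 10238 genes. Mest and Igf2r differed between the lines and had 0.02 and 0.03 in KO1, so their mean calls reflect KO2. The p-values rest on the spread among libraries within lines. With the knockout lines pooled as 1 group, Peg10 alone kept its call, beside 216 calls over all 10238 genes. The adjusted p was then 0.371 for Mest, 0.255 for Igf2r, 0.155 for Commd1 and 0.0562 for Peg3 (limma).

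Genes that read, write or guard the imprint itself were listed separately, 31 in number, of which 30 were tested. In KO2 against WT 1 rose (Dppa3) and 8 fell (Dnmt3b, Trim28, Setdb1, Ctcf, Tet2, Daxx, Zfp57 and Eed). Over all genes 18.5% were called there, 11.0% higher and 7.51% lower. The list had a median log2 fold change of -0.07 beside 0.02 for all genes. Dnmt3b, a de novo DNA methyltransferase, had 189, 190.3 and 187 in KO2, 226, 227 and 229.7 in KO1, and 242, 242 and 251 in WT. All KO2 libraries lay below all others, with a log2 fold change of -0.38 ± 0.05, adjusted p = 6.14e-08 in KO2, -0.11 ± 0.05, adjusted p = 0.33 in KO1 and -0.27 ± 0.05, adjusted p = 0.000103 between KO2 and KO1 (limma). Trim28, the cofactor of ZFP57, averaged 3439 ± 150.4 in KO2, 3834 ± 134 in KO1 and 3982 ± 109 in WT, a log2 fold change of -0.21 ± 0.04, adjusted p = 1.08e-05 in KO2 and -0.06 ± 0.04, adjusted p = 0.555 in KO1. Setdb1, the H3K9 methyltransferase that TRIM28 recruits, averaged 477 ± 9.53 in KO2, 539 ± 12.8 in KO1 and 546 ± 10.3 in WT and changed by -0.19 ± 0.04, adjusted p = 0.000373 in KO2.

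Dppa3, which shields maternal methylation in the early embryo, rose in both lines. It averaged 162 ± 15.4 in KO2, 169.6 ± 5.85 in KO1 and 130.5 ± 7.73 in WT (SD, n = 3), a log2 fold change of 0.31 ± 0.06, adjusted p = 0.000165 in KO2 and 0.38 ± 0.06, adjusted p = 4.01e-05 in KO1 (limma). It was the 1 gene of this list called in KO1, where 1.06% of all tested genes were called. Zfp57 averaged 503 ± 32.6 in KO2, 509 ± 33.9 in KO1 and 556 ± 19.2 in WT, with -0.15 ± 0.05, adjusted p = 0.0199 in KO2 and -0.13 ± 0.05, adjusted p = 0.176 in KO1. KO2 against KO1 called 6 genes of the list, all lower in KO2 (4 when KO1 replicate 2, or KO1 replicate 3, or else KO2 replicate 2 was left out, and 9 without KO2 replicate 3), where 5.22% of all genes were called lower and 9.92% in either direction. The list had a median there of -0.06 beside -0.0071 for all genes, and Tet2, a methylcytosine dioxygenase, had -0.23 ± 0.04, adjusted p = 0.000164 there. Methylation at the control regions is not analysed here.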

How the data were processed

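Poly-A RNA of 9 libraries (3 each of KO2, KO1 and WT; Illumina stranded kit, paired reads of 50 bases per the labels) was analysed. The deposited table holds, per gene, a signal: gene counts that the authors divided by 1 factor per library. HISAT2, DESeq2 and GRCm38 are named in the submitters' processing notes; the versions, annotation, counter and strand setting behind the table are not stated there or in the labels. Each value was a whole multiple of its library's step (100% of values within 0.05 reads), so read counts were recovered.

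Members and lists were chosen with earlier results of these data known. The 10238 genes averaging 10 or more were tested with limma 3.58.1 (R 4.3.3) on log2(value + 1), with 1 mean per group, trend and robust moderation. Calls are Benjamini-Hochberg adjusted p-values under 0.05 over all of them. Log2 fold changes are on that scale, which understates changes of low genes. The count test edgeR 4.0.16 (quasi-likelihood, TMM) on the recovered reads called 1882 genes in KO2 against WT, 117 in KO1 against WT, 1075 between the lines and 925 for the mean of both lines. Other alternatives were DESeq2 1.42.0, other scalings, pseudocounts (0.5 and 5) and filters (none and 50), a replicate block, pooled knockout lines and leaving out each library. Values in all libraries are given for called genes, for the most abundant ones and for genes under the filter with at least 10 reads in 1 library, and other genes by range; of companion lists up to 4 genes of a comparison with the smallest adjusted p are named, with Igf1r, Zfp57, Copg2, the other members of lists named without values and the marker genes chosen after their values were seen. On simulated data with 50 genes changed 1.25-fold, the limma calls recovered 68% of them in KO2 against WT and 70% in KO1 against WT, and 94% and 98% of 50 changed 1.5-fold; 13 calls in KO2 and 16 in KO1 (6.70% and 8% of all calls) were false, above the nominal 5%. The simulation changed the same genes equally in both lines, whereas the data gave 1892 calls in KO2 against WT and 109 in KO1 against WT. With fewer calls the unadjusted p needed for an adjusted p of 0.05 is stricter in KO1. These shares therefore do not compare the power of the lines in the data. Ratios of low genes are recovered reads per depth, with exact 95% intervals for counting error only. Lengths, positions and overlaps come from the GENCODE annotation of GRCm38, promoter windows from RefSeq (GRCm38.p6). Same-numbered libraries did not deviate together (correlations of -0.13 to 0.03, beside -0.09 to 0.17 for different numbers). The main fit therefore used no pairing. This does not show whether same-numbered libraries were made together.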

Additional observations from a re-analysis of the deposited data

Results flagged for a closer look

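In 5 genes the changes of the knockout lines against WT differed from each other by the test of KO2 against KO1 (limma, adjusted over all tested genes, 3 libraries per line). Mest differed most, at -0.40 ± 0.07, adjusted p = 4.04e-05 on the log2 scale, with counts of 66.1 ± 2.23 in KO2, 87.2 ± 1.04 in KO1 and 86.1 ± 1.06 in WT (SD, n = 3). Impact differed by -0.26 ± 0.06, adjusted p = 0.00181, with 142 ± 7.31 in KO2, 171 ± 7.17 in KO1 and 154 ± 12.6 in WT. Zdbf2 differed by -0.24 ± 0.06, adjusted p = 0.00929, with 132 ± 6.57 in KO2, 156 ± 13.1 in KO1 and 143 ± 13.6 in WT. Peg3 differed by 0.22 ± 0.06, adjusted p = 0.0102, with 171 ± 12.9 in KO2, 147 ± 4.41 in KO1 and 133 ± 8.31 in WT. Igf2r differed by 0.19 ± 0.04, adjusted p = 0.00371, with 444 ± 25.7 in KO2, 389.7 ± 6.30 in KO1 and 383 ± 15.7 in WT. In each of them the KO2 and KO1 libraries did not overlap, which the call largely implies and which adds no separate support. The share of all genes without overlap was not computed. Effects of the edit and of the line cannot be told apart.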

How the results depend on the processing

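Each knockout is 1 line, and differences well under the called ones can be missed at this depth and number of libraries. The count called in KO2 against WT was 5 to 7 over all 19 alternatives, and Peg10 alone was called in KO1 in each. KO2 against KO1 gave 5, and 3 to 5 on leaving out 1 library (3 without KO1 replicate 3, where Peg3 and Zdbf2 were lost). The mean of both lines gave 5, but 3 with median-ratio scaling, quantile normalization, edgeR with TMM or RLE factors and DESeq2, 2 with no filter, 1 with the knockout lines pooled and 2 to 4 on leaving out 1 library. The calls over all genes moved too. For the mean they were 931, but 815 (DESeq2) to 938 (median-ratio) with those scalings and tests, 904 with no filter, 216 pooled and 511 to 1063 on leaving out 1 library. Between the lines they were 1016, and 521 to 1207 on leaving out 1 library. Across the alternatives they were 1324 to 1918 in KO2 against WT and 50 to 166 in KO1. With the replicate number as a block, the counts were 6 in KO2, 1 in KO1, 5 between the lines and 2 for the mean. The calls over all genes were then 1719, 89, 867 and 819. Plagl1 in KO2 had an adjusted p of 0.0701 (limma) with this block, and the pairing rests on numbers only. Signs turned, all in comparisons that were not called, for Mest in KO1 (-0.0057 with median-ratio scaling, -0.014 with quantile normalization, -0.0053 and -0.0038 with edgeR's TMM and RLE, -0.0038 with DESeq2), and on leaving out 1 library for Igf2r in KO1 (-0.0087 without WT replicate 2, up to 0.047), Sgce in KO1 (-0.0038 without WT replicate 2, up to 0.31), Plagl1 in KO1 (-0.052 to 0.014 without KO1 replicate 1) and Peg10 between the lines (-0.076 to 0.0052 without KO1 replicate 3). Plagl1 in KO2 was also lost with no filter (adjusted p = 0.0669). By construction the omissions rest on fewer libraries, the block on fewer degrees of freedom and the unfiltered fit on more genes tested (15526, against 10238), and beyond that the cause of the changes was not tested. Of the alternatives for single genes, beside these 9, 1264 kept direction and side of the threshold, 102 no longer passed it and 2 newly passed it.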

Other observations

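A second list of 47 other imprinted genes, outside the 40, had 31 in the table and 19 tested. In KO2 against WT 5 rose (Trappc9, Slc38a4, Ppp1r9a, Copg2 and Cd81) and 2 fell (Jade1 and Gab1), where 18.5% of all tested genes were called (11.0% higher, 7.51% lower). The list had a median log2 fold change of 0.05 beside 0.02 for all genes. Slc38a4, an amino acid transporter, averaged 369 ± 12.6 in KO2, 306 ± 11.2 in KO1 and 303 ± 8.39 in WT (SD, n = 3), a change of 0.28 ± 0.05, adjusted p = 5.66e-06 in KO2 and 0.02 ± 0.05, adjusted p = 0.932 in KO1 (limma). Jade1, a scaffold of histone acetyltransferase complexes, averaged 579 ± 17.7 in KO2, 669 ± 7.52 in KO1 and 696 ± 17.2 in WT, with -0.27 ± 0.04, adjusted p = 1.43e-06 in KO2 and -0.06 ± 0.04, adjusted p = 0.593 in KO1. Trappc9, a trafficking complex subunit, had 0.31 ± 0.07, adjusted p = 0.00056 in KO2, and Cd81, a tetraspanin, 0.20 ± 0.04, adjusted p = 0.000448. Without KO2 replicate 1 or WT replicate 2, 3 rose and 2 fell, and without KO2 replicate 3, 3 rose and 3 fell. In KO1 against WT 0 of the 19 were called by limma, edgeR or DESeq2, with 5 at an unadjusted p under 0.05 (limma). In that comparison 1.06% of all tested genes were called, and 1304 of 10238 had an unadjusted p under 0.05. Slc38a4 and Jade1 also differed between KO2 and KO1, by 0.27 ± 0.05, adjusted p = 3.73e-05 and -0.21 ± 0.04, adjusted p = 0.000218. This list was written with earlier results of these data known, and its genes are not imprinted in every tissue.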
